A study of Mus musculus with 4 samples.

Results

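The cytochrome P450 genes were followed in RNA-seq of embryonic mouse kidneys in which the transcription factor gene Hnf4a had been deleted in the nephron lineage. Members were chosen by name: all genes whose symbol is Cyp, a family number, a subfamily letter and a gene number, leaving out Cyp24a1 and Cyp27b1. This rule found 95 members among the 23852 gene names in the tables, in 15 families and 36 subfamilies. Levels are FPKM (fragment counts per unit of transcript length, relative to the library total), summed over entries that share a symbol. Of the 95 members, 26 reached an FPKM of 1 in 2 or more of the 4 libraries, and 20 of these were listed in all 4 tables and could be tested.

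Both groups were kidneys at E18.5, close to birth, from mice of mixed strain. The 2 mutant libraries had the genotype Hnf4a c/c ; Six2GFPcre, in which both copies of Hnf4a can be recombined. The 2 control libraries were Hnf4a c/+ ; Six2GFPcre. Both groups carried the Cre transgene, so the controls can lose a copy of Hnf4a too and are not wild type. Six2 drives the Cre in nephron progenitors, so the collecting duct, stroma and vessels keep the intact gene, and each library mixes all of them. The labels do not say which animals were used or whether kidneys were pooled, so the p-values measure only the spread between these libraries. The study asked what the loss of Hnf4a in the nephron lineage does to the kidney.

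Cytochromes P450 are heme enzymes that insert an oxygen atom into lipids, steroids, retinoids and foreign compounds. Microsomal members take electrons from P450 reductase and cytochrome b5, and mitochondrial members take them from ferredoxin. In the kidney, many of those that act on fatty acids and foreign compounds are found in the proximal tubule, the nephron segment that reabsorbs most of the filtrate. In the liver, HNF4A is a known regulator of P450 genes.

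The 4 libraries were alike in breadth, with 13552 to 13646 gene names at an FPKM of at least 1. No read totals come with these values, so the depth behind each FPKM is unknown. Hnf4a itself had 87.1 and 78.5 FPKM in mutant kidneys, against 89.3 and 84.6 FPKM in control kidneys. This level covers the whole gene, including the parts outside any deleted stretch, and does not check the genotype. The 9 kidney markers were present in every library, and so were Cyp2e1, Cyp2j5 and Cyp4b1, the genes taken to mark the family in kidney. Replicate 1 of each group held the Y-linked Ddx3y, at 26.4 FPKM in the mutant library and 27.7 FPKM in the control library, and replicate 2 of each held Xist, at 74 FPKM in the mutant library and 81 FPKM in the control library. The 2 libraries of a group are therefore not repeats of a single sample, and replicate number and sex-linked transcripts cannot be told apart in any gap between replicates. The liver transcript of albumin (Alb) was highest in mutant replicate 2, at 21.1 FPKM, against 0.295 to 1.11 FPKM in the other libraries.

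Many of these enzymes sit in tandem arrays, and promoter sequence is shown for Cyp2d26, Cyp2j13 and Cyp2j11, the members with the smallest p-values, together with Cyp2j6, a neighbour in the Cyp2j array whose values overlapped between the groups. The sequences are from RefSeq promoter windows on GRCm38.p6, 250 bases before to 50 bases after each start, written 5′ to 3′ on the strand of the gene. Capitals mark the only match to CAAAGNNCA, a core of the HNF4 binding motif with 2 free bases, searched on both strands.
Cyp2d26, chr15:82794196-82794495, minus strand: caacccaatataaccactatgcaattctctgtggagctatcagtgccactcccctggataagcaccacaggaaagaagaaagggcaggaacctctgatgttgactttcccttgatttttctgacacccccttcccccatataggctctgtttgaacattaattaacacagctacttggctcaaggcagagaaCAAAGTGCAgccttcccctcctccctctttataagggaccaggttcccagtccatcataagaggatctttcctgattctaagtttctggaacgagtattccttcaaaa
Cyp2j13, chr4:96077491-96077790, minus strand: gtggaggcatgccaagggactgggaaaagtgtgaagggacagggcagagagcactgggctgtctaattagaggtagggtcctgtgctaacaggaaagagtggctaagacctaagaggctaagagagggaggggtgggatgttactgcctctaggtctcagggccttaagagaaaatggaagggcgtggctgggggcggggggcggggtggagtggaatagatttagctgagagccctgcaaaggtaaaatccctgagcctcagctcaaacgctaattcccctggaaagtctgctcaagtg
Cyp2j11, chr4:96348631-96348930, minus strand: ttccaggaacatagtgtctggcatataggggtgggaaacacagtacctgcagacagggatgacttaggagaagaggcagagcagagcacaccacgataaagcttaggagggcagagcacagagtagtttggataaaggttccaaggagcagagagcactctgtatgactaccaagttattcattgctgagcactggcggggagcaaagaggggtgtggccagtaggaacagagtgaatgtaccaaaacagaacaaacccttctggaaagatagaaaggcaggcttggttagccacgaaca
Cyp2j6, chr4:96553602-96553901, minus strand: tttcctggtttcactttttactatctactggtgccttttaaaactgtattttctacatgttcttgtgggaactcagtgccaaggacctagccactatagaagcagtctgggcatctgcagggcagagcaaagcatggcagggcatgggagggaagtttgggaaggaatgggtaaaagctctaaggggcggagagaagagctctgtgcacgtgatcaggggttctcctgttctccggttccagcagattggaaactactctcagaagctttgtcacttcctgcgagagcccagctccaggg
The 3 Cyp2j windows hold no match to these letters, which says nothing of other parts of the genes or of binding by the factor. The Cyp2d26 window holds CAAAGTGCA at position -58 from the start.

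Across the family, no member passed the adjusted threshold of 0.05 by limma on log2(FPKM + 1), with Benjamini-Hochberg adjustment over all 13287 genes tested. The share of all tested genes that passed was 0.113% for lower and 0.0452% for higher in mutant kidneys. The smallest adjusted p of a member was 0.0982. At an unadjusted p under 0.05, 3 members had lower values in mutant kidneys, against 4.57% of all genes tested, and 0 members had higher ones, against 2.67%. The mutant and control values did not overlap for 14 members, with 7 lower and 7 higher in mutant kidneys. The 7 higher include Cyp2r1, which was kept only through its mutant values and so had to be higher. Such separation was common, at 17.1% of all tested genes for lower and 22.7% for higher. The median log2 change (mutant minus control) was -0.04 over the 20 tested members and 0.02 over all tested genes, and 14 of the 20 lay within 0.5 of 0.

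**Figure D1:**
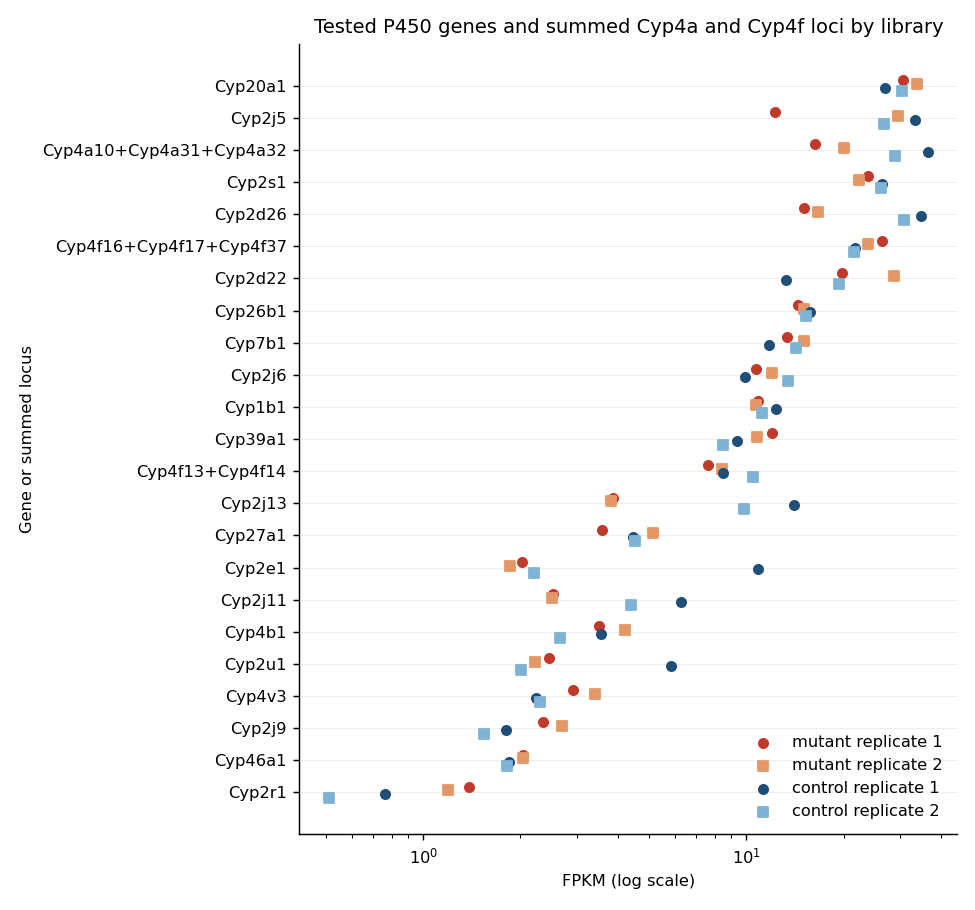
FPKM (log axis) of the 20 tested P450 genes and of 3 summed Cyp4a and Cyp4f loci in each of the 4 libraries, with mutant libraries in red and orange and control libraries in blue. Cyp2d26, Cyp2j13, Cyp2j11 and the summed Cyp4a locus have both mutant points left of both control points, while Cyp2e1 and Cyp2u1 have a single high point, control replicate 1.

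**Figure D2:**
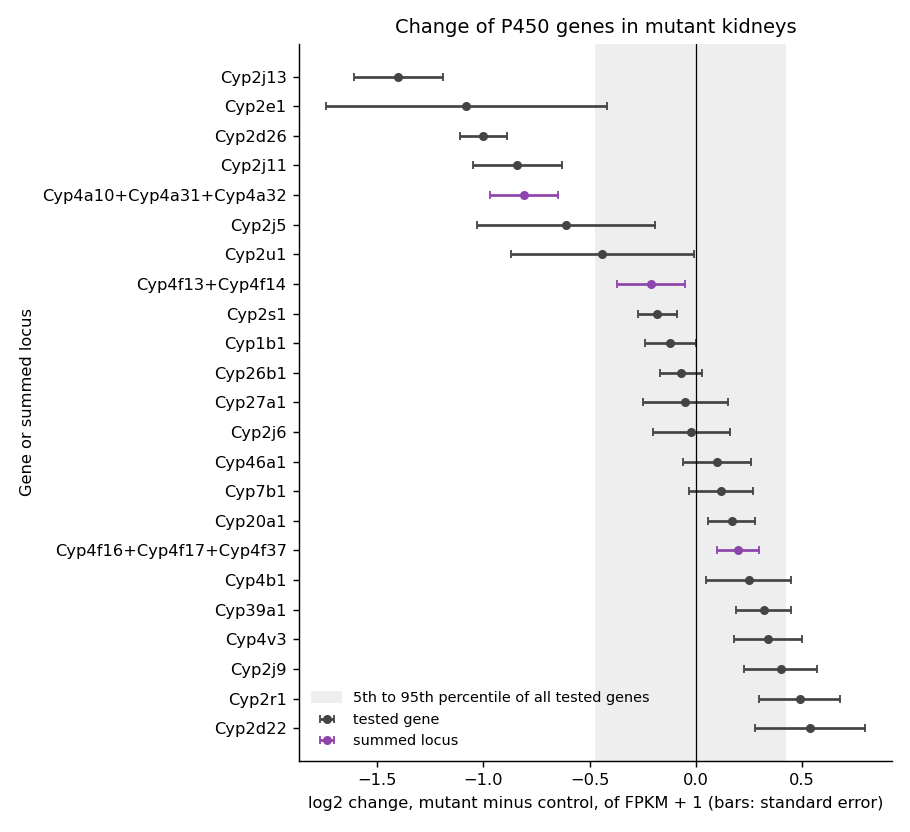
Log2 change of FPKM + 1, mutant minus control, with its standard error, for the 20 tested genes (grey) and 3 summed loci (purple), on a band that spans the 5th to 95th percentile of all tested genes (-0.47 to 0.42). Cyp2j13, Cyp2d26, Cyp2j11 and the Cyp4a sum lie left of the band by more than their standard errors. Cyp2e1 and Cyp2j5 lie left of it, and Cyp2d22 and Cyp2r1 right of it, with bars that cross back into it. Cyp2r1 was kept for testing only through its mutant values.

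The Cyp2j enzymes form epoxides and hydroxy acids from arachidonic acid, and their genes lie side by side on chromosome 4. Of the 7 members, 5 were detected and Cyp2j8 and Cyp2j12 were listed at 0 in every library. Cyp2j13 (mm9 chr4:95709351-95744231), at the low-coordinate end of the array, had 3.87 and 3.81 FPKM in mutant kidneys, against 14.1 and 9.84 FPKM in control kidneys. The mutant pair was nearly identical, and each mutant value was below each control value. The means were 3.84 ± 0.0446 FPKM in mutant and 12 ± 3.04 FPKM in control kidneys (SD, n = 2 each), so mutant kidneys had 32% of the control level. Its log2 change was -1.40 (SE 0.21), the most negative among the tested members, with an unadjusted limma p of 0.00174 and an adjusted p of 0.167.

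Cyp2j11 (mm9 chr4:95961199-96015371) had 2.52 and 2.5 FPKM in mutant kidneys, against 6.28 and 4.4 FPKM in control kidneys. These groups did not overlap either, and mutant kidneys held 47% of the control mean. The log2 change was -0.84 (SE 0.21), with an unadjusted limma p of 0.0125 and an adjusted p of 0.433.

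Cyp2j5, the Cyp2j enzyme best known from mouse kidney, had 12.3 and 29.4 FPKM in mutant kidneys, against 33.3 and 26.7 FPKM in control kidneys. Mutant replicate 1 was low and mutant replicate 2 lay between the control values, so the groups overlapped. In mutant replicate 2 its locus was drawn longer, over 48175 bp (mm9 chr4:96282659-96330833), against 36688 to 36712 bp in the other libraries; the part of this in the higher value was not tested. The log2 change was -0.61 (SE 0.42, adjusted p = 0.764 by limma); it was -1.21 without mutant replicate 2 and -0.02 without mutant replicate 1.

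Cyp2j6 and Cyp2j9, which lie between Cyp2j11 and Cyp2j5, did not share the lower values. Cyp2j6 had 10.7 and 12 FPKM in mutant kidneys, against 9.89 and 13.5 FPKM in control kidneys, with a log2 change of -0.02 (SE 0.18) whose sign turned when a library was left out. Cyp2j9 had 2.35 and 2.69 FPKM in mutant kidneys, against 1.8 and 1.54 FPKM in control kidneys. Its groups did not overlap, with mutant values higher, and its log2 change was 0.40 (SE 0.17, adjusted p = 0.743 by limma). Neighbours in this array thus had values in opposite directions in the same libraries, although the differences between genes were not tested. At most 1.34% of the 50-base stretches of any detected Cyp2j gene's transcripts (Cyp2j11) also occur in another gene, counted in the GENCODE vM21 transcripts.

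**Figure D3:**
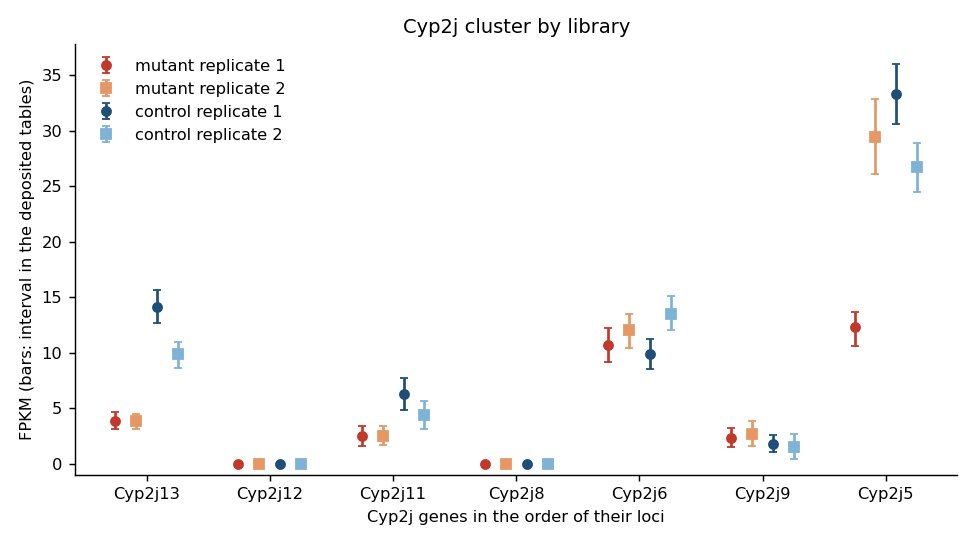
FPKM of the 7 Cyp2j genes in the order of their loci on chromosome 4, in each of the 4 libraries (mutant in red and orange, control in blue); bars are the confidence intervals in the deposited tables. Cyp2j13 and Cyp2j11 are lower in both mutant libraries, Cyp2j6 and Cyp2j9 overlap or run the other way, and Cyp2j5 is low only in mutant replicate 1.

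Cyp4a enzymes oxidise the end carbon of fatty acids, and some of them make a vasoactive hydroxy acid from arachidonate. Their levels could not be read gene by gene, because the assembly joined neighbouring genes under different names in different libraries. Cyp4a31 had 17.5 FPKM in mutant replicate 2 and 27.7 FPKM in control replicate 1, and was not listed alone in the other libraries. Cyp4a10 had 1.61 FPKM in mutant replicate 2, against 7 FPKM in control replicate 1 and 0 in control replicate 2. Cyp4a32 had 1.02 and 0.839 FPKM in mutant kidneys, against 1.71 FPKM in control replicate 1. The joint entries were Cyp4a10 with Cyp4a31 at 15.3 FPKM in mutant replicate 1 and Cyp4a31 with Cyp4a32 at 28.9 FPKM in control replicate 2. Between 20.6% (Cyp4a31) and 43.8% (Cyp4a32) of the 50-base stretches of these genes recur in another gene, so their reads can be split between them.

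Summed over the 3 genes and their joint entries, a step added after the values were seen, the Cyp4a locus had 16.3 and 20 FPKM in mutant kidneys, against 36.4 and 28.9 FPKM in control kidneys. The groups did not overlap, and the mutant mean was 55.6% of the control mean (18.1 ± 2.55 against 32.6 ± 5.29 FPKM, SD, n = 2 each). The log2 change was -0.81 (SE 0.16, with an unadjusted limma p of 0.00611 and an adjusted p of 0.303). Other Cyp4a genes were low: Cyp4a12a and Cyp4a30b were above 0 in all libraries but under 1 FPKM.

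Cyp4f enzymes oxidise leukotrienes and other fatty acids, and their genes on chromosome 17 were joined in the same manner. Cyp4f16 had 18.1 and 15 FPKM in mutant kidneys, against 14.6 FPKM in control replicate 2. Cyp4f17 had 6.83 and 7.44 FPKM in mutant kidneys, against 5.14 FPKM in control replicate 2, and Cyp4f37 had 1.39 and 1.32 FPKM in mutant kidneys, against 1.92 FPKM in control replicate 2. In control replicate 1 the 3 were a single entry of 21.7 FPKM. Their sum was 26.3 and 23.8 FPKM in mutant kidneys, against 21.7 and 21.6 FPKM in control kidneys, a log2 change of 0.20 (SE 0.10, adjusted p = 0.763 by limma). Cyp4f13 was listed alone only in mutant replicate 1, at 7.57 FPKM, and elsewhere with Cyp4f14. Their sum was 7.64 and 8.41 FPKM in mutant kidneys, against 8.46 and 10.5 FPKM in control kidneys, with a log2 change of -0.21 (SE 0.16, adjusted p = 0.766 by limma).

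The remaining fatty acid hydroxylases were at low levels. Cyp4b1, which also activates some foreign compounds, had 3.49 and 4.21 FPKM in mutant kidneys, against 3.54 and 2.65 FPKM in control kidneys. These groups overlapped, and the log2 change was 0.25 (SE 0.20, adjusted p = 0.77 by limma). Cyp4v3, the mouse counterpart of the human enzyme mutated in a crystalline retinal dystrophy, had 2.9 and 3.41 FPKM in mutant kidneys, against 2.24 and 2.3 FPKM in control kidneys. Its groups did not overlap, with a log2 change of 0.34 (SE 0.16, adjusted p = 0.764 by limma). Cyp2u1, a hydroxylase of long-chain fatty acids, had 2.46 and 2.22 FPKM in mutant kidneys, against 5.84 and 2.01 FPKM in control kidneys. Here control replicate 1 alone was high, 2.9 times control replicate 2, and the log2 change was -0.44 (SE 0.43) with all libraries and 0.15 without that library.

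Among the enzymes of foreign compounds, Cyp2d26 had the smallest p of the family. Cyp2d26 (mm9 chr15:82620537-82624675) had 15.1 and 16.7 FPKM in mutant kidneys, against 34.8 and 30.7 FPKM in control kidneys. Both groups were tight and lay apart, and the deposited confidence intervals of each mutant library stayed below those of each control library. This held for 1 other tested member, Cyp2j13. The share of all genes tested with such intervals was not counted, so how unusual this is cannot be said. The means were 15.9 ± 1.19 FPKM in mutant and 32.8 ± 2.87 FPKM in control kidneys (SD, n = 2 each), so the mutant level was 48.5% of the control level. The log2 change was -1.0 (SE 0.11, with an unadjusted limma p of 0.000582 and an adjusted p of 0.0982). In mutant replicate 1 the locus was drawn to 82629145, over 8609 bp, against 4139 bp in the other 3 libraries, and the part of this in its value was not tested. Of its 50-base stretches, 9.49% recur in Cyp2d22 or other Cyp2d genes.

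Cyp2d22, the other detected Cyp2d gene and the mouse gene often compared with the human drug-metabolising CYP2D6, had 19.8 and 28.7 FPKM in mutant kidneys, against 13.3 and 19.3 FPKM in control kidneys. All mutant values were above all control values, by a narrow margin between mutant replicate 1 and control replicate 2. Within each replicate number the mutant level was 1.49 and 1.48 times the control level. Its log2 change was 0.54 (SE 0.26, adjusted p = 0.764 by limma). The Cyp2d pair thus had values on opposite sides, with the other 6 Cyp2d members below the detection level.

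Cyp2e1, which oxidises ethanol, acetone and small solvents, had 2.02 and 1.85 FPKM in mutant kidneys, against 10.9 and 2.21 FPKM in control kidneys. The 2 control libraries differed 4.94-fold, and control replicate 2 was close to the mutant libraries. The deposited intervals of control replicate 2 (1.31 to 3.07 FPKM) and of the mutant libraries (1.18 to 2.82 and 1.02 to 2.64 FPKM) overlapped. The log2 change was -1.08 (SE 0.66, adjusted p = 0.764 by limma) with all libraries, -0.13 without control replicate 1 and -2.03 without control replicate 2, so the size of this difference rests on control replicate 1. The control replicates also differ in sex-linked transcripts, whose part in this gap was not tested.

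Cyp1b1 and Cyp2s1, which are expressed in many tissues outside the liver, were close between the groups. Cyp1b1, which oxidises oestrogens and polycyclic hydrocarbons, had 10.9 and 10.7 FPKM in mutant kidneys, against 12.4 and 11.2 FPKM in control kidneys, with a log2 change of -0.12 (SE 0.12). Cyp2s1 had 23.8 and 22.4 FPKM in mutant kidneys, against 26.3 and 26.1 FPKM in control kidneys, with a log2 change of -0.18 (SE 0.09). Neither passed the threshold (adjusted p = 0.807 for Cyp1b1 and 0.764 for Cyp2s1 by limma). The groups did not overlap in either gene, but the mutant means were 91.4% and 88% of the control means.

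None of the 4 tested enzymes of sterols and bile acids passed the threshold, and Cyp39a1 had the largest difference among them. Cyp39a1, which acts on side-chain hydroxylated cholesterol, had 12 and 10.8 FPKM in mutant kidneys, against 9.37 and 8.47 FPKM in control kidneys. The groups lay apart, and the log2 change was 0.32 (SE 0.13, with an unadjusted limma p of 0.0633 and an adjusted p of 0.724). Cyp7b1, the oxysterol hydroxylase of the alternative bile acid route, had 13.4 and 15.1 FPKM in mutant kidneys, against 11.8 and 14.3 FPKM in control kidneys, and these groups overlapped. Cyp27a1, the mitochondrial sterol side-chain hydroxylase, had 3.57 and 5.16 FPKM in mutant kidneys, against 4.46 and 4.52 FPKM in control kidneys. The control pair sat between the mutant values. Cyp46a1, the cholesterol side-chain hydroxylase best known from neurons, had 2.03 FPKM in both mutant libraries, against 1.84 and 1.82 FPKM in control kidneys. The log2 changes of these last 3 genes were 0.12, -0.05 and 0.10, all within their standard errors of 0.15 to 0.20.

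Cyp7a1, the rate-limiting enzyme of bile acid synthesis in liver, was listed at 0 in every library. Cyp51, a demethylase of cholesterol synthesis whose symbol falls outside the naming rule, had 17.4 and 17.8 FPKM in mutant kidneys, against 23.9 and 24.7 FPKM in control kidneys. Its log2 change was -0.44 (SE 0.09, with an unadjusted limma p of 0.00585 and an adjusted p of 0.298).

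Cyp26b1, which degrades retinoic acid, had 14.5 and 15.1 FPKM in mutant kidneys, against 15.8 and 15.3 FPKM in control kidneys, a log2 change of -0.07 (SE 0.10). Its relative Cyp26a1 stayed below 1 FPKM, at 0.26 and 0.822 FPKM in mutant kidneys, against 0.431 and 0.764 FPKM in control kidneys. Cyp2r1, a vitamin D hydroxylase, had 1.39 and 1.19 FPKM in mutant kidneys, against 0.762 and 0.512 FPKM in control kidneys. It was kept for testing only through its mutant values, so their being the higher ones is fixed by the filter and its log2 change of 0.49 (SE 0.19) is a description. Cyp20a1, whose substrate is not known, was the most abundant single member in mutant kidneys, at 30.6 and 33.8 FPKM, against 26.8 and 30.3 FPKM in control kidneys. Its log2 change was 0.17 (SE 0.11, adjusted p = 0.764 by limma).

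Summed over members and joint entries, the family had 244 and 282 FPKM in mutant kidneys, against 317 and 294 FPKM in control kidneys. An FPKM of 1 was reached by 25 members in each mutant library, against 22 in each control library. Genes in a joint entry are not counted singly, as for the 3 Cyp4f genes joined in control replicate 1.

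The lower members can be set beside the markers of the proximal tubule. All 12 proximal tubule markers outside the family had lower values in mutant kidneys at an unadjusted p under 0.05, and none passed the adjusted threshold (Lrp2 and Pck1 each had an adjusted p of 0.0504 by limma). Among all genes tested, 4.57% were lower at that unadjusted level, and the marker list was chosen with earlier results of these data known. The 12 markers summed to 265 and 277 FPKM in mutant kidneys, against 676 and 554 FPKM in control kidneys. None of them was at 0, and their median log2 change was -1.33. For Slc13a3, a dicarboxylate transporter, the mutant mean was 29.4% of the control mean, and for Slc34a1, the phosphate transporter, it was 39.9%. Cyp2j13, at 32%, lay between these, and Cyp2j11, Cyp2d26 and the Cyp4a sum lay above them. The part of proximal tubule content in the P450 values was not tested. In whole kidneys, fewer cells of a type and less RNA per cell cannot be told apart.

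For other cell types, markers listed in all tables were summed. Stroma and mesangium markers summed to 519 and 456 FPKM in mutant kidneys, against 585 and 527 FPKM in control kidneys. Endothelium markers summed to 307 and 305 FPKM in mutant kidneys, against 329 and 311 FPKM in control kidneys. Macrophage and leukocyte markers summed to 127 and 151 FPKM in mutant kidneys, against 135 and 124 FPKM in control kidneys. Urothelium markers summed to 140 and 85.4 FPKM in mutant kidneys, against 96.3 and 78 FPKM in control kidneys, and erythroid markers to 27.7 and 29.4 FPKM in mutant kidneys, against 17.5 and 21.4 FPKM in control kidneys.

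Genes that work with P450 enzymes were read from 6 lists, and no member of them passed the adjusted threshold. Their counts at an unadjusted p under 0.05 stand against 4.57% lower and 2.67% higher among all genes tested. Redox partners, which pass electrons to the enzymes, had 9 tested genes, of which 0 were lower and 1 was higher at an unadjusted p under 0.05. That gene was Cyb5r1, with 23.2 and 26 FPKM in mutant kidneys, against 19.6 and 18.6 FPKM in control kidneys (adjusted p = 0.54 by limma). The 12 tested genes of heme synthesis and breakdown had 1 lower and 0 higher, the porphyrin oxidase Cpox, with 29.5 and 28.5 FPKM in mutant kidneys, against 33.8 and 33.4 FPKM in control kidneys. The summed level of the redox partners was 506 and 512 FPKM in mutant kidneys, against 508 and 515 FPKM in control kidneys.

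Retinoid handling had 15 tested genes, with 0 lower and 2 higher at that level, of which Lrat was kept for testing only through its mutant values, so its direction is fixed by the filter. Aldh1a1, which makes retinoic acid, had 11.6 FPKM in both mutant libraries, against 7.17 and 6.66 FPKM in control kidneys (log2 change 0.67, SE 0.12, adjusted p = 0.25 by limma). Lrat, which stores retinol as esters, had 1.66 and 1.4 FPKM in mutant kidneys, against 0.659 and 0.701 FPKM in control kidneys. For Cyp26b1, on the degrading side, the mutant mean was 95% of its control mean. The difference between these genes was not tested. Among 13 tested enzymes of eicosanoids and epoxides, 0 were lower and 1 was higher, the prostaglandin-inactivating Hpgd, with 12.5 and 12.8 FPKM in mutant kidneys, against 8.79 and 9.98 FPKM in control kidneys.

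Steroid enzymes outside the P450 family had 12 tested genes, with 2 lower and 0 higher at an unadjusted p under 0.05. Hsd17b2, which inactivates sex steroids, had 6.21 and 5.05 FPKM in mutant kidneys, against 18.1 and 19 FPKM in control kidneys (log2 change -1.57, SE 0.14, adjusted p = 0.0806 by limma). Akr1c21, a reductase of steroids, had 3.4 and 2.82 FPKM in mutant kidneys, against 8.53 and 8.27 FPKM in control kidneys (log2 change -1.20, SE 0.15, adjusted p = 0.134 by limma). Of the 17 tested regulators of P450 genes, 3 were lower and 0 were higher, and the values of 2 are given. The bile acid receptor Nr1h4 had 2.31 and 3.94 FPKM in mutant kidneys, against 6.67 and 6.11 FPKM in control kidneys. Rxrb, a partner of nuclear receptors, had 33.8 and 33 FPKM in mutant kidneys, against 40.7 and 44 FPKM in control kidneys. The log2 change was -0.87 for Nr1h4 and -0.33 for Rxrb, with adjusted limma p-values of 0.511 and 0.422.

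Of the 95 members, 69 did not reach an FPKM of 1 in 2 libraries under their own name, and 33 of these were listed at 0 in each table that has them. The 69 include Cyp4f13, which counts as low only because its name was joined with Cyp4f14 in 3 libraries, at 8.41 to 10.5 FPKM. Family CYP2 had 47 members, of which 11 were detected and 20 were at 0. Family CYP4 had 20 members, of which 8 were detected and 2 were at 0, while none of the 9 CYP3 members was detected and 6 were at 0. The drug-metabolising Cyp2b subfamily was at 0 in all 5 of its members. An FPKM listed at 0 does not exclude a low level, since the depth is unknown.

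**Figure D4:**
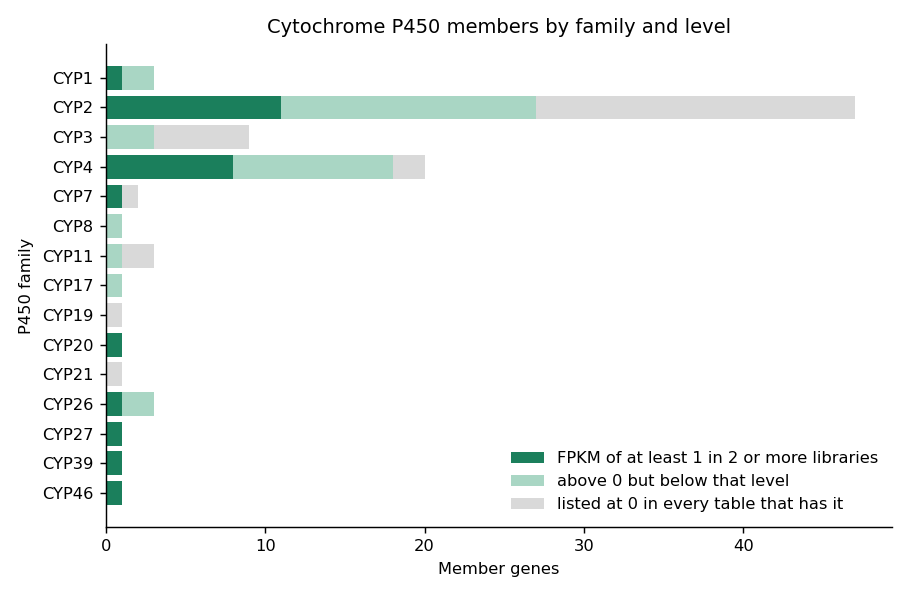
Number of member genes in each of the 15 P450 families, split into those with an FPKM of at least 1 in 2 or more libraries (dark green), those above 0 but below that level (light green) and those listed at 0 in each table that has them (grey). Cyp4f13, joined with Cyp4f14 in 3 libraries, is in the light green class. CYP2 has 11 of 47 members in the first class and CYP4 has 8 of 20, and CYP3 has none of 9.

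Of the 36 members between these levels, 8 were above 0 in all libraries: Cyp1a1, Cyp2d9, Cyp4a12a, Cyp4a30b, Cyp4f39, Cyp4x1, Cyp11a1 and Cyp26a1. The highest of these was Cyp1a1, which is induced by aryl hydrocarbons, at 0.847 and 0.707 FPKM in mutant kidneys, against 0.674 and 0.83 FPKM in control kidneys. Cyp11a1, which starts steroid synthesis from cholesterol, had 0.348 and 0.676 FPKM in mutant kidneys, against 0.692 and 0.597 FPKM in control kidneys. The later steroid enzymes Cyp11b1, Cyp11b2, Cyp21a1 and Cyp19a1 were at 0 in every library, and Cyp17a1 reached at most 0.144 FPKM. Star, the cholesterol carrier of the adrenal cortex next to the kidney, was at 0 in both mutant libraries and in control replicate 1, and at 0.632 FPKM in control replicate 2. The 6 adrenal cortex markers listed in all tables summed to 58.6 and 67.5 FPKM in mutant kidneys, against 55.9 and 65.6 FPKM in control kidneys, mostly from Scarb1 and Akr1b7. Among the rest, Mc2r had 1.36 and 1.26 FPKM in mutant kidneys, against 1.16 and 1.24 FPKM in control kidneys. Nr0b1 had 1.03 and 0.667 FPKM in mutant kidneys, against 0.598 and 0.673 FPKM in control kidneys, and Nr5a1 reached at most 0.0974 FPKM. Hsd3b6 and Hsd3b1 had values only in mutant replicate 1 (2.26 and 0.249 FPKM) and control replicate 2 (5.21 and 0 FPKM). The 7 gonad markers listed in all tables summed to 3.27 and 3.59 FPKM in mutant kidneys, against 3.07 and 2.91 FPKM in control kidneys. The members named here at 0, and those named for a motif, were chosen after their values were seen.

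The Cyp2c and Cyp3a genes, which carry much of drug metabolism in liver and intestine, have 24 members here, and none was detected. They were above 0 in 2 and 8 members in mutant kidneys, against 1 and 2 members in control kidneys. Over all 9451 low genes, 29.5% and 31.2% were above 0 in mutant kidneys, against 28.3% and 29.2% in control kidneys. The summed values below are of the Cyp2c and Cyp3a members only. Their summed level was 0.137 and 0.994 FPKM in mutant kidneys, against 0.0493 and 0.165 FPKM in control kidneys. The count was highest in mutant replicate 2, the library in which the liver markers Alb, Ahsg and Fgg were highest. Of the 10 liver markers, Ttr alone was not highest there, at 9.75 FPKM, against 14.7 and 10.9 FPKM in control kidneys.

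**Figure D5:**
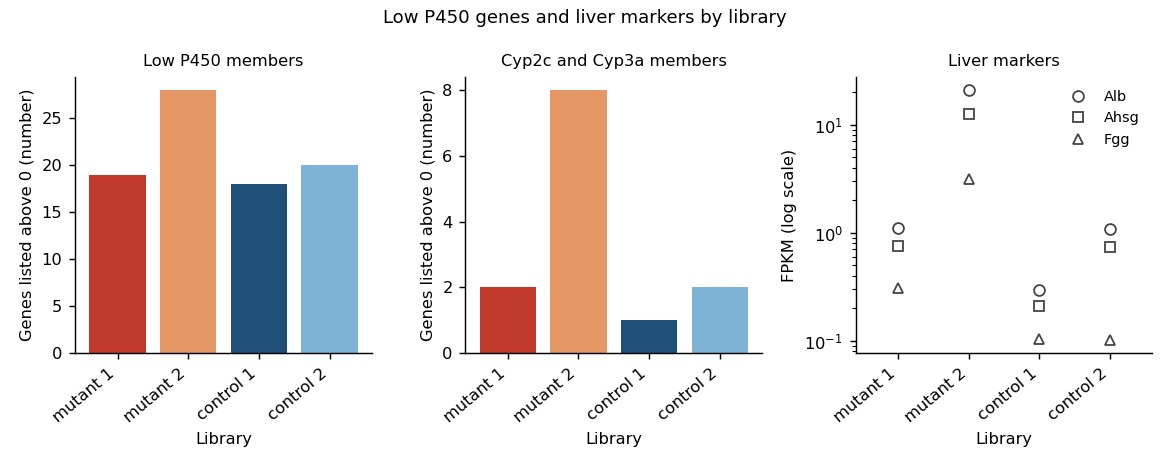
By library, the number of the 69 low P450 members listed above 0 under their own name (left), the number of the 24 Cyp2c and Cyp3a members listed above 0 (middle), and the FPKM (log axis) of the liver markers Alb, Ahsg and Fgg (right). Mutant replicate 2 has the highest bar (28 low members, 8 Cyp2c and Cyp3a members) and the highest values of these 3 markers. Over all 9451 low genes, 31.2% were above 0 in mutant replicate 2 and 28.3% to 29.5% in the other libraries. Of the 10 liver markers, Ttr, which is not drawn, was not highest in mutant replicate 2.

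The HNF4 motif was also looked for across the family's promoter windows, of which RefSeq gave 73 for the 95 members and 16 for the 20 tested ones. The full HNF4-specific motif CAAAGTCCA, on both strands, occurred in 11 of 73 members (15.1%), against 0.555% of all 27025 genes with a window. All 11 were members too low to test: Cyp2c40, Cyp2c65, Cyp2c67, Cyp2c68, Cyp2c69, Cyp2c70, Cyp3a11, Cyp3a16, Cyp3a41a, Cyp3a41b and Cyp8b1. Most are tandem copies that share sequence, so they do not count as separate occurrences. The looser CAAAGNNCA, which includes the full motif, was in 25 of 73 members (34.2%), against 7.27% of all genes, and in 2 of the 16 tested members, Cyp2d26 and Cyp4b1. Short stretches around the matches are shown for these 2 members and for 4 members below the detection level, with 16 bases on either side and the match in capitals.
Cyp2d26, chr15:82794279-82794319, minus strand: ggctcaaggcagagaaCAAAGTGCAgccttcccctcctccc
Cyp4b1, chr4:115647838-115647894, minus strand: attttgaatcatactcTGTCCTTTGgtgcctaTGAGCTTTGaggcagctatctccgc
Cyp2c37, chr19:39992345-39992385, plus strand: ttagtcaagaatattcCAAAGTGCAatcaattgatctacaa
Cyp3a11, chr5:145879939-145879979, minus strand: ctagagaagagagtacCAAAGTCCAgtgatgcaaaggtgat
Cyp2c70, chr19:40187326-40187366, minus strand: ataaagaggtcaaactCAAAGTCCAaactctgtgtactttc
Cyp8b1, chr9:121916348-121916388, minus strand: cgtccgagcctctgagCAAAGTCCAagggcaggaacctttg
In Cyp4b1 both matches are on the other strand and so read as the reverse complement. Cyp2d26 and Cyp2c37 hold the same match, CAAAGTGCA, at positions -58 and -63 from their starts, but Cyp2d26 was detected in every library and Cyp2c37 was at 0 in all of them. Cyp2d26 was at 48.5% of its control level in mutant kidneys, while Cyp4b1 was at 124% of its control level.

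The TATA box letters TATAAA were in 32 of 73 members (43.8%), against 15.7% of all genes. Only 4 of the 16 tested members had them, against 28 of the 57 untested members with a window. These matches describe letters in the windows and are not binding sites, and no chance test was made on them.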

How the data were processed

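RNA of 4 mouse kidney libraries was extracted with a micro-scale column kit, selected for poly(A) and made into libraries with a ThruPLEX kit, per the labels' protocols. TopHat2 2.0.11, Bowtie 1.0.0, SAMtools 0.1.19, Cufflinks 2.1.1 and mm9 are named in the submitters' processing notes; the annotation and options were not given in the sources used here. The deposited values are FPKM with confidence intervals, in a table per library that the authors normalised by length and total. Depth is unknown and strand is not described.

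FPKM of entries with the same symbol were summed. A gene with an entry without status OK in any library was left out of the fit whole (99 of the names in all 4 tables). The 13287 genes that were in all 4 tables and reached an FPKM of 1 in 2 or more libraries were fitted on log2(FPKM + 1), so fold changes of low genes are understated. The test was limma 3.58.1 (R 4.3.3) with a trended prior and Benjamini-Hochberg adjustment over all genes tested, threshold 0.05; it was checked on simulated data. Alternatives covered the pseudocount, filter, scaling, prior, entries used, a replicate block and leaving out each library; sums over joined Cyp4a and Cyp4f entries were added after the data were seen. No column was left unmapped. All members at an FPKM of 1 in 2 libraries were named with each library's value; of each pathway list, up to 3 tested genes with the smallest unadjusted p were named. Some single-gene results are not reported here. Members and lists were chosen with earlier results of these data known. Promoters are RefSeq windows (GRCm38.p6) matched by symbol; shared 50-base stretches were counted in GENCODE vM21 transcripts.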

Additional observations from a re-analysis of the deposited data

Results flagged for a closer look

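In mutant replicate 2, 8 of the 24 Cyp2c and Cyp3a members were listed above 0, against 2 members in mutant replicate 1 and 1 and 2 members in control kidneys; these genes lie below the level at which any was compared. Of all 69 low P450 members, 28 were above 0 in mutant replicate 2, against 19 in mutant replicate 1 and 18 and 20 in control kidneys. A further comparison is over all 9451 low genes, of which 31.2% were above 0 in mutant replicate 2, 29.5% in mutant replicate 1 and 28.3% and 29.2% in control kidneys. The liver marker Ahsg was at 0.753 and 12.5 FPKM in mutant kidneys, against 0.209 and 0.737 FPKM in control kidneys, and Fgg at 0.311 and 3.13 FPKM in mutant kidneys, against 0.103 and 0.101 FPKM in control kidneys. Ttr alone of the 10 liver markers was not highest in mutant replicate 2. It had 5.51 and 9.75 FPKM in mutant kidneys, against 14.7 and 10.9 FPKM in control kidneys. The 10 liver markers summed to 40.8 and 103 FPKM in mutant kidneys, against 43.8 and 54 FPKM in control kidneys; none was at 0 in all libraries, and Apoh was at 0 in mutant replicate 1 and control replicate 1. Cyp2e1, also a liver gene, was at 1.85 FPKM in mutant replicate 2 and not high there, but its level in liver at this age is not known from these data. The part of liver RNA in these counts was not tested.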

How the results depend on the processing

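Under 16 alternatives, 314 of 319 values of tested members kept their direction and 0 passed the adjusted threshold. The exceptions in direction came from leaving out a library. In those fits an arm has a single library, which is assumed to vary like the other group, so missing the threshold there says little of stability. Then the log2 change ranged over -0.27 to 0.17 for Cyp27a1 (highest without mutant replicate 1), -0.23 to 0.18 for Cyp2j6 (highest without control replicate 2, and 0.05 without mutant replicate 1), -1.04 to 0.15 for Cyp2u1, and -0.01 to 0.25 for Cyp7b1 (Cyp2u1 highest and Cyp7b1 lowest without control replicate 1). Hnf4a, which is no P450 gene, ranged over -0.14 to 0.00. Over the alternatives, Cyp2d26 ranged over -1.09 to -0.91 (adjusted p 0.0942 to 0.343), Cyp2j13 over -1.64 to -1.16 (0.146 to 0.43), Cyp2j11 over -1.05 to -0.62 (0.221 to 0.871) and the Cyp4a sum over -0.97 to -0.65 (0.229 to 0.729). The count of genes past the adjusted threshold, 21, was 10 with no filter on low values and 11 without the trended prior. Leaving out a library gave 0 to 14 such genes: 0 by limma without control replicate 1 (739 lower and 290 higher at an unadjusted p under 0.05), 0 without control replicate 2 (1124 and 1169), 12 without mutant replicate 1 and 14 without mutant replicate 2. The 3 members lower at an unadjusted p were 3 to 5 when a library was left out, with 5 without control replicate 2. The 0 members higher at an unadjusted p were 1 with no filter, where 467 of all 17152 genes tested were higher. Without the trended prior they were 4 (Cyp2j9, Cyp2r1, Cyp39a1 and Cyp4v3), where 432 of all 13287 genes tested were higher. Of these, Cyp2r1 was kept only through its mutant values, so its direction is fixed by the filter. The count of higher members also moved without mutant replicate 1, where the log2 change of Cyp2d22 was 0.80. The cause of these shifts was not tested.

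Under a replicate block, 6 genes passed the adjusted threshold and 1 member was higher at an unadjusted p, Cyp2d22 (unadjusted limma p of 0.00676, adjusted p of 0.362). In that fit, 412 of all 13287 genes tested were higher at an unadjusted p under 0.05. Over the genes tested, the gap between control replicates 1 and 2 correlated at 0.146 with the gap between mutant replicates 1 and 2. The labels do not tie the numbers to a shared litter or day. Replicate 1 of each group held Y-linked transcripts and replicate 2 held Xist, so in this block number and sex coincide. Depth is unknown, so limits of detection could not be set.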
